A study of Mus musculus with 11 samples.

Results

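Pericytes and vascular smooth muscle cells are the mural cells that wrap brain capillaries and arterioles. Pericytes depend on PDGF-B signalling through their PDGF receptor beta, are marked by regulators of G-protein signalling and by a vascular ATP-sensitive potassium channel, and help to maintain the blood-brain barrier. Smooth muscle cells are marked by contractile filament proteins, and Notch3 is needed for their maturation in arteries. The 10 genes described here were Rgs5, Pdgfrb, Kcnj8, Abcc9, Acta2, Tagln, Myh11, Des, Vtn and Notch3, found by their Ensembl identifiers among 48709 genes in the count tables.

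The cells were primary hippocampal neurons from E17 embryos of CD1 mice. The study pooled the hippocampi of the embryos of 1 pregnant mouse for a preparation and describes such cultures as holding neurons and glia. At day in vitro 10 (DIV10) the cells received lipid nanoparticles with either an oligonucleotide mimic of miR-181a-5p (mimic, n = 5) or a negative control oligonucleotide (control, n = 6), together with ApoE4 in both groups, and poly(A) RNA was sequenced after 48 hours, at DIV12. The labels do not say whether the samples were separate cultures, so every test below measures the spread between samples, which may be technical, and the mimic itself was not measured. Library totals ran from 17287168 to 48091231 counts, the highest being control replicate 1, and 3 counts were worth 0.0624 to 0.174 CPM, that is, counts scaled to a common library size, depending on the library.

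The mimic carried the mature miR-181a-5p sequence, which RefSeq (GRCm38.p6) places at chr1:137966468-137966490 and chr2:38852741-38852763, both on the plus strand. Both oligonucleotides are shown 5′ to 3′ because they are the only designed difference between the groups, with the seed (bases 2 to 8) in capitals.
mimic miR-181a-5p: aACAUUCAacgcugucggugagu
negative control: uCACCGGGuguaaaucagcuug

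A 3′ UTR site that pairs with the whole seed reads TGAATGT, and one that pairs with bases 2 to 7 reads GAATGT. Each gene was searched over its longest 3′ UTR among protein-coding transcripts of GENCODE M21, on the strand of the gene. Among 14489 tested genes with a 3′ UTR, 18.5% held the 7-base match and 36.6% the 6-base match. Of the 10 genes, Abcc9 held the 7-base match, and Rgs5, Tagln and Des held the 6-base match but not the longer one. None of the other 6 held either, and none of the 10 held CCCGGTG, the match to the negative control seed, which 2.87% of tested genes held. The list of miR-181a-5p targets that the study used had 1121 names and held 0 of the 10 genes. The sites of Rgs5 (plus strand) and the 7-base site of Abcc9 (minus strand) are printed in GRCm38 with the seed match in capitals, because Rgs5 had the largest difference between the groups among the tested genes of the 10 and Abcc9 the longest match.
Rgs5, chr1:169693118-169693147: gttggaatagccGAATGTctgaaaataccc
Rgs5, chr1:169693642-169693671: tttccaggaaaaGAATGTgtagtgtttgtt
Abcc9, chr6:142588668-142588697: tctgttggagcTGAATGTcatgatgtttat
The Rgs5 3′ UTR was 3473 bases long, against a median of 1201 for tested genes. A match of letters is not a site shown to be used.

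The 10 genes were chosen by a rule that had the expression difference between mimic and control in view, so their differences in that contrast are a description and carry no test of their own. 7 of the 10 passed the count filter (5 counts or more in 50% or more of samples), and Kcnj8, Abcc9 and Des did not. Over all 17365 tested genes, edgeR's quasi-likelihood test called 495 at an adjusted p below 0.05, which is 2.85%, with 1.77% lower and 1.08% higher in mimic. The number called was 218 without control replicate 1 and 237 without mimic replicate 2. With upper-quartile factors 226 were lower and 234 higher, so these shares depend on the samples and the scaling. Of the 7, 1 gene was called, Rgs5, and it was lower. Rgs5 was also the only 1 of the 7 whose CPM did not overlap between the groups, as for 2.89% of tested genes. The log2 fold change was below 0 in 3 of the 7 and above 0 in 4, and their median was 0.098 on the log2 scale, beside -0.00015 for all tested genes.

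Rgs5 (ENSMUSG00000026678, chr1:169655501-169695813, plus strand) encodes a GTPase-activating protein that shortens signalling through G proteins and is among the most used pericyte markers. Its control CPM ran from 9.23 (replicate 3) through a median of 11.3 to 15.9 (replicate 6). In mimic replicates 1 to 5 it was 8.77, 7.33, 7.30, 6.81 and 6.87 CPM. All 5 mimic samples thus lay below the lowest control sample, and control replicate 6 stood above the other controls. The means were 11.7 ± 2.38 CPM (SD, n = 6) and 7.42 ± 0.793 CPM (SD, n = 5), and the fitted difference was -0.66 on the log2 scale (SE 0.13), or 0.631-fold. The coefficient of variation was 20.4% in control and 10.7% in mimic, while counting error alone would give 6.05% and 7.89%.

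The call on Rgs5 held in 7 of the 11 fits that left out 1 sample. It was lost without control replicate 1 (log2 fold change -0.65) and without mimic replicates 2 (-0.66), 4 (-0.63) or 5 (-0.64). Over all fits without 1 sample the log2 fold change lay between -0.73 and -0.56, so its size moved little. Fewer cells of a type and less RNA per cell cannot be told apart in such bulk samples.

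**Figure D1:**
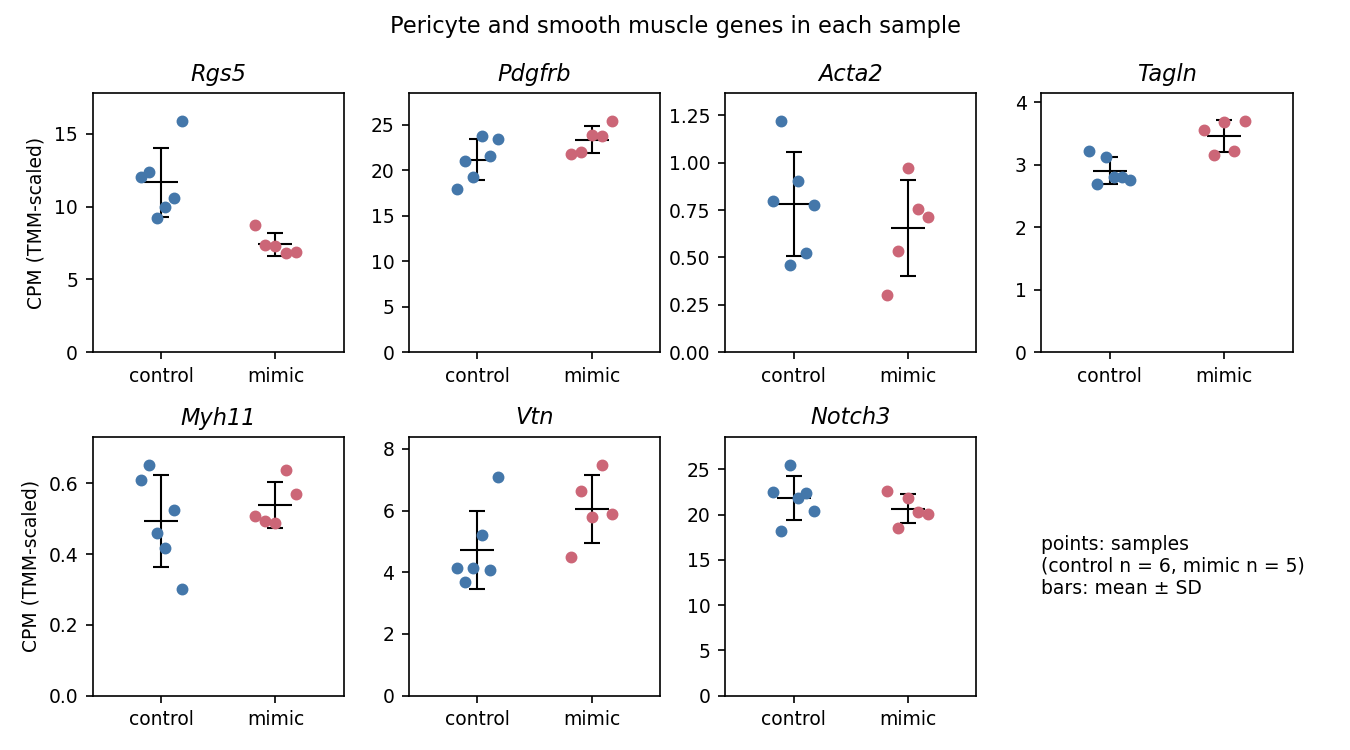
CPM (scaled by edgeR's TMM factors, axis from 0) of the 7 genes that passed the count filter, in the 6 control and 5 mimic samples; points are samples and bars the mean ± SD. The 5 mimic values of Rgs5 lie below all 6 control values, and the groups overlap in the other 6 genes.

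The receptors Pdgfrb and Notch3 were the most abundant of the 10 genes per length in control. Pdgfrb (ENSMUSG00000024620), the PDGF-B receptor through which endothelial cells recruit pericytes and which fibroblasts also carry, had a control CPM of 18.0 to 23.7 with a median of 21.3. In mimic replicates 1 to 5 it was 21.8, 21.99, 23.9, 23.7 and 25.4 CPM. All 5 mimic samples were above the control median and 3 of them above the highest control, with a log2 fold change of 0.15 (SE 0.067) that was not called.

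Notch3 (ENSMUSG00000038146), a Notch receptor of arterial smooth muscle, had a control CPM of 18.2 to 25.5 with a median of 22.1. It was 22.6, 18.5, 21.8, 20.3 and 20.04 CPM in mimic replicates 1 to 5. Every mimic value was within the control range, and the log2 fold change of -0.084 (SE 0.068) was not called.

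Kcnj8 and Abcc9 encode the pore and the sulfonylurea receptor of the vascular ATP-sensitive potassium channel and lie 16.2 kb apart on chromosome 6. Kcnj8 (ENSMUSG00000030247) had 1 count in control replicate 3, 3 counts in mimic replicate 1, 1 count in mimic replicate 2 and 0 in the other 8 libraries. Abcc9 (ENSMUSG00000030249) had 5, 3, 2, 5, 0 and 6 counts in control replicates 1 to 6 and 1, 4, 4, 2 and 2 in mimic replicates 1 to 5. Neither gene passed the count filter, and no fold is given at these counts. The channel's neuronal and endocrine counterparts were measured in all samples, Kcnj11 at 13.7 ± 1.16 CPM in control and 13.1 ± 1.08 in mimic and Abcc8 at 12.7 ± 0.956 and 12.6 ± 0.902. Neither of these 2 was called by edgeR or by DESeq2, and 0 of the 2 had an unadjusted p below 0.05.

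The contractile and filament genes ranged from low to nearly absent. Tagln (ENSMUSG00000032085), the actin-binding protein transgelin, had a control CPM of 2.70 to 3.22 with a median of 2.81. In mimic replicates 1 to 5 it was 3.55, 3.15, 3.68, 3.23 and 3.70 CPM. Thus 4 of the 5 mimic samples were above the highest control, with a log2 fold change of 0.23 (SE 0.098) that was not called. Tagln shares 108 exon bases (5.43% of its exons) with Pcsk7 on the opposite strand, and whether the counts kept the strands apart is not given. Pcsk7 was at 27.8 CPM in control and 27.9 in mimic. The antisense gene Gm48529 covers 62.4% of the Tagln exons. It had no CPM value here, so its part in the reads of Tagln was not tested.

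Acta2 (ENSMUSG00000035783), smooth muscle alpha-actin, had a control CPM of 0.459 to 1.22 with a median of 0.786. It was 0.304, 0.532, 0.974, 0.757 and 0.711 CPM in mimic replicates 1 to 5, from 6 to 19 counts. The groups overlapped widely (log2 fold change -0.29, SE 0.25, not called), and reads of Acta2 are uncertain because actin genes are nearly identical in sequence over their coding parts.

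Myh11 (ENSMUSG00000018830), the smooth muscle myosin heavy chain, lay between 0.301 and 0.653 CPM in control and between 0.487 and 0.637 in mimic. Its log2 fold change of 0.098 (SE 0.24) was not called. Des (ENSMUSG00000026208), the intermediate filament protein desmin, had 2, 2, 0, 2, 1 and 0 counts in control replicates 1 to 6 and 1, 0, 1, 2 and 0 in mimic replicates 1 to 5. Kcnj8 and Des thus never exceeded 3 counts in any library.

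Vtn (ENSMUSG00000017344) encodes vitronectin, a secreted adhesion protein that binds alpha-v integrins and is made by brain pericytes. Its control CPM ran from 3.70 through a median of 4.14 to 7.10 (replicate 6). In mimic replicates 1 to 5 it was 4.51, 6.65, 5.79, 7.49 and 5.87 CPM. All 5 mimic samples exceeded the control median but only 1 exceeded control replicate 6, the same library that was highest for Rgs5. The means of 4.73 ± 1.26 (SD, n = 6) and 6.06 ± 1.11 CPM (SD, n = 5) differed by 0.38 on the log2 scale (SE 0.17), which was not called. It was called without control replicate 6 (0.53), with no count filter (0.38) and with the replicate number as a block (0.50, also without control replicate 6). The differences of Vtn and Rgs5 thus had opposite signs, although both genes are used to mark brain pericytes.

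Levels of different genes were compared as CPM per kilobase of exon in the control samples. The order was Pdgfrb at 3.86 ± 0.413, Notch3 at 2.69 ± 0.301, Rgs5 at 2.57 ± 0.524, Vtn at 2.33 ± 0.623, Tagln at 1.46 ± 0.108 and Acta2 at 0.355 ± 0.125 (SD, n = 6 each). Myh11 followed at 0.065 ± 0.017, and Abcc9, Des and Kcnj8 had means of 0.0151, 0.0114 and 0.0030. Pdgfrb thus stood near the middle of the tested genes (percentile 52.2 by level per length), Rgs5 at percentile 44.5, Acta2 at 17.1 and Myh11 at 1.62.

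5 of the 9 neighbouring pairs in that order kept it in all 6 control samples: Pdgfrb over Notch3, Vtn over Tagln, Tagln over Acta2, Acta2 over Myh11 and Myh11 over Abcc9. An exact two-sided sign-flip permutation test over 6 samples cannot go below p = 0.03125, which each of these 5 pairs reached, and adjustment over the 9 pairs gave 0.05625, so none passed. Notch3 and Rgs5 kept their order in 4 of 6 samples and Rgs5 and Vtn in 3 of 6 (exact adjusted p = 0.656 and 0.482), so neither pair differed beyond its spread. In mimic Rgs5 was at 1.63 ± 0.175 CPM per kilobase and came 5th, after Tagln at 1.74 ± 0.128, where it had been 3rd in control.

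**Figure D2:**
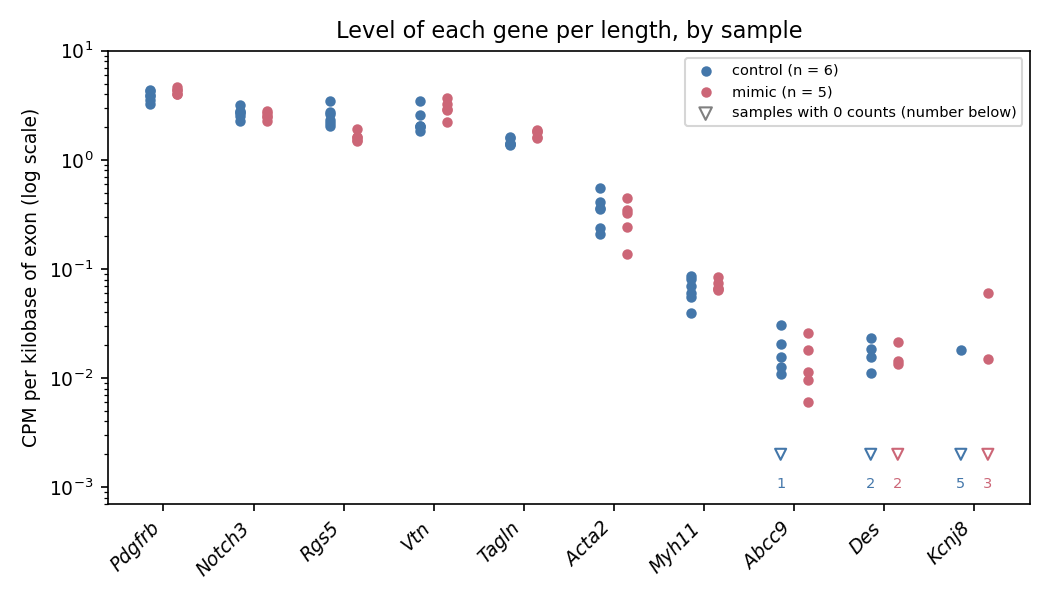
Level of the 10 genes in CPM per kilobase of exon (log axis) in each control and mimic sample, in the order of the control means. Open triangles stand for libraries with 0 counts, and the number under each says how many; Kcnj8 was at 0 in 5 control and 3 mimic libraries, while Pdgfrb, Notch3, Rgs5, Vtn and Tagln had over 1 CPM per kilobase in every sample.

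The label of pericyte and smooth muscle genes was checked against 22 further pericyte markers. 18 were tested, and the defining pericyte genes Higd1b and Cox4i2 had at most 3 counts in every library, as Kcnj8 had. The summed level of the list was 558 to 615 CPM in control and 577 to 606 in mimic. Most of it came from genes that neurons also express: Rgs4 alone had 364 ± 21.7 CPM in control and 368 ± 7.71 in mimic. The 2 highest per length were Rgs4, at 118 and 119 CPM per kilobase in control and mimic, and Gucy1b1, a subunit of the nitric oxide receptor guanylate cyclase, at 32.4 and 30.4.

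Of the 18 tested, 1 rose and none fell, where 1.08% of all tested genes rose and 1.77% fell, and the median log2 fold change was 0.086. Before adjustment 10 of the 18 had an edgeR p below 0.05, with log2 fold changes above 0 in 11 of the 18 and below 0 in 7. The share of all tested genes at that unadjusted level is not given here. The gene that rose was Foxf2, a forkhead transcription factor of brain pericytes, from 1.75 ± 0.316 to 2.53 ± 0.416 CPM (log2 fold change 0.58, SE 0.14, edgeR adjusted p = 0.0239). Its call was lost without control replicate 1 (0.45) and without mimic replicates 2 (0.56), 4 (0.58) or 5 (0.51). Its direction was opposite to that of Rgs5.

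Of 25 further smooth muscle genes 20 were tested. Actg2, Pln and Myocd, which encode gamma smooth muscle actin, phospholamban and the coactivator myocardin, had at most 3 counts in every library. 2 genes rose and 1 fell, beside the 1.08% and 1.77% of all tested genes, and the median log2 fold change was 0.067. Before adjustment 10 of the 20 had an edgeR p below 0.05. Tpm2, a tropomyosin of muscle, rose from 0.671 ± 0.190 to 1.21 ± 0.307 CPM (log2 fold change 0.88, SE 0.20, edgeR adjusted p = 0.0157). Flna, the widely expressed actin crosslinker filamin A, rose from 340 ± 12.4 to 368 ± 12.7 CPM (0.12, SE 0.028, edgeR adjusted p = 0.0190). Mrtfb, a coactivator of serum response factor that neurons also use, fell from 171 ± 7.44 to 157 ± 4.94 CPM (-0.13, SE 0.030, edgeR adjusted p = 0.0180). All 3 calls were lost without control replicate 1, with log2 fold changes of 0.85, 0.10 and -0.13. Without mimic replicate 2 those of Tpm2 (0.82) and Mrtfb (-0.12) were lost, and without mimic replicate 4 that of Flna (0.11). With the replicate number as a block that of Mrtfb was lost too (-0.11). Flna and Tpm1 were the most abundant of the list, at 36.1 and 23.3 CPM per kilobase in control. Of these 4 called genes, Mrtfb held the 6-base match in its 3′ UTR and Foxf2, Tpm2 and Flna held no match.

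None of 15 Notch receptors, ligands and targets was called by edgeR or DESeq2, although 2 had an unadjusted p below 0.05. The most abundant were the target Hey1, at 9.08 CPM per kilobase in control and 9.17 in mimic, and the receptor Notch2, at 8.85 and 8.63. None of 5 PDGF ligands and receptors was called by either tool and 1 had an unadjusted p below 0.05. Over all tested genes edgeR called 2.85%. The ligands Pdgfa and Pdgfb led at 13.3 and 13.2 CPM per kilobase in control.

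Of 9 other regulators of G-protein signalling, 7 were tested, and 1 had an unadjusted p below 0.05. None was called by either tool, where edgeR called 2.85% of all tested genes. Rgs4, which lies 45.7 kb from Rgs5 on chromosome 1, had a log2 fold change of 0.015 (SE 0.032). The next most abundant was Rgs2, at 11.2 CPM per kilobase in control. Rgs18 and Rgs21 had 0 counts throughout.

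Of 8 integrins and other partners of vitronectin, 7 were tested and 1 was called, beside 2.85% of all tested genes. An unadjusted p below 0.05 was found for 2. The called gene, Itgb1, the beta-1 integrin, rose from 172 ± 6.48 to 186 ± 7.51 CPM (log2 fold change 0.11, SE 0.030, edgeR adjusted p = 0.0353). Its call held in 5 of 11 fits without 1 sample, being lost without control replicates 1 (0.096), 3 (0.10) or 5 (0.11) and without mimic replicates 2 (0.10), 3 (0.12) or 5 (0.10). Itgb5 came next to it in level, at 10.1 CPM per kilobase in control and 10.3 in mimic.

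Some genes of other cell types were called between the groups, and their part in the values above was not tested. Of 12 fibroblast markers, 11 had a log2 fold change above 0 and 2 rose, Foxc1 (0.30, SE 0.085) and Foxd1 (1.21, SE 0.23). Over all tested genes edgeR called 1.08% higher in mimic, which also applies to the proliferation genes below. DESeq2 called 5 of the 12, where it called 564 of all 17365 tested genes. In edgeR 10 had an unadjusted p below 0.05, and 3 had groups that did not overlap in CPM, as for 2.89% of tested genes. The summed level of the 12 was 323 to 486 CPM in control and 499 to 659 in mimic, with Col3a1 and Col1a1 at 13.1 and 9.48 CPM per kilobase in control. Foxc1 stayed called only without control replicate 4 or mimic replicate 1, was lost in the other 9 of the 11 fits without 1 sample (log2 fold changes of 0.24 to 0.32) and was not called by DESeq2. All 6 proliferation genes had a log2 fold change above 0 and Top2a and Cdk1 rose, with sums of 45.6 to 53.2 and 55.0 to 66.4 CPM. All 6 had an unadjusted p below 0.05 in edgeR. Top2a and Mki67 led this list at 2.22 and 1.80 CPM per kilobase in control. The call on Cdk1 was lost without control replicate 1 (0.32) and without mimic replicates 2 (0.36) or 5 (0.34).

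The calls of this paragraph stand beside 1.08% of all tested genes called higher and 1.77% called lower in mimic. Of 12 endothelial markers, 7 were tested, 1 had an unadjusted p below 0.05 and 1 was called. The called gene, Cdh5, the adherens junction cadherin, rose from 1.77 ± 0.431 to 2.96 ± 0.580 CPM. Cldn5, Erg and Ly6c1 had at most 3 counts in every library, and the sums were 36.2 to 44.4 CPM in control and 37.5 to 46.6 in mimic, most of it from Kdr at 34.8 ± 3.00 CPM in control. Astrocyte markers summed to 4511 to 4890 CPM in control and 4148 to 4396 in mimic, where Slc1a2 fell. Neuron markers summed to 7091 to 7270 and 6829 to 6994 CPM, where Slc17a6 rose and Slc17a7 fell; the call on Slc17a7 was lost without control replicate 1 (log2 fold change -0.12) and without mimic replicates 2 (-0.13) or 4 (-0.14). Oligodendrocyte lineage markers summed to 315 to 381 and 288 to 331 CPM and microglia markers to 14.9 to 15.6 and 14.02 to 15.5 CPM. Of these last 2 lists edgeR called none (unadjusted p below 0.05 in 3 of 8 and 2 of 8) and DESeq2 called 1 and 0. That unadjusted level was passed by 4 of 8 astrocyte and 6 of 10 neuron markers. The highest per length in these 4 lists were Slc1a2 and Gfap, Tubb3 and Neurod6, Olig1 and Olig2, and Aif1 and C1qa, with control levels from 1.92 CPM per kilobase (C1qa) to 438 (Tubb3). The marker lists share Cspg4 and Pdgfra with pericyte and PDGF genes. The pericyte list also shares Heyl with the Notch genes and Rgs4 with the other regulators of G-protein signalling. Those regulators share Rgs2 with the smooth muscle list, so the lists are not independent.

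**Figure D3:**
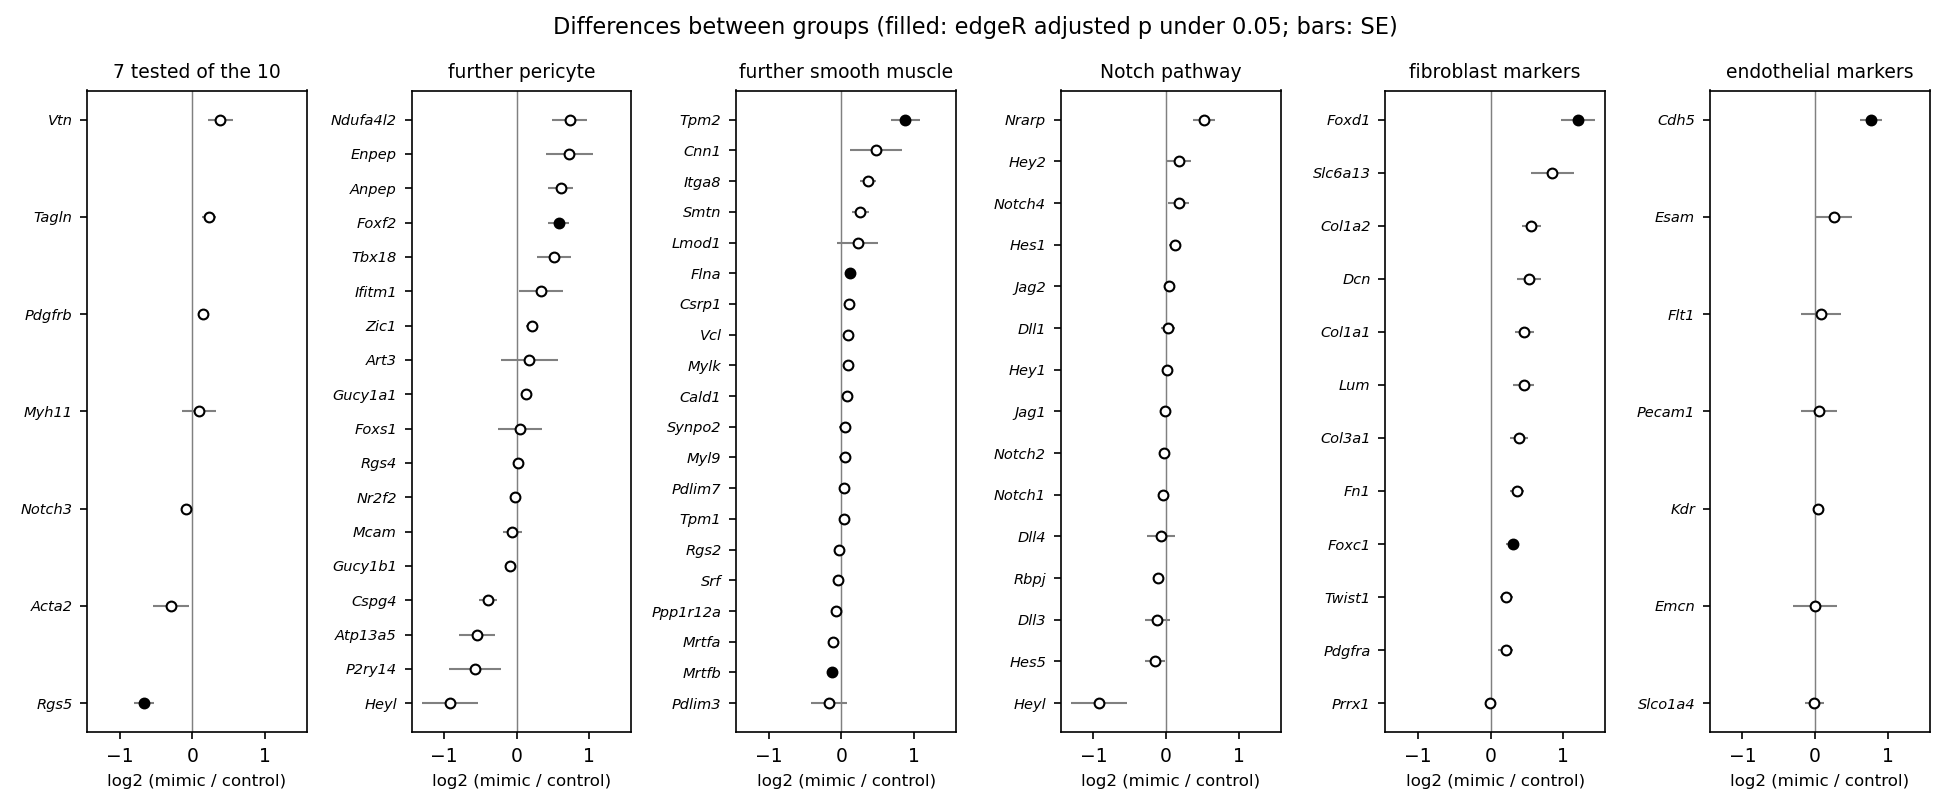
Log2 fold change (mimic over control) with its SE for the tested genes of 6 lists; filled points passed edgeR's adjusted p below 0.05. Rgs5 is the only filled point among the 7 tested of the 10 genes, at -0.66, while Foxf2, Tpm2, Flna, Foxd1, Foxc1 and Cdh5 are filled to the right of 0 and Mrtfb to the left.

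The variation of these genes inside the groups, which the choice of genes did not use, was described by the deviations of log2 CPM from the group means over 11 samples. The samples share library and depth across genes, so these correlations are a description only. Over the 21 pairs of the 7 tested genes the median Pearson r was -0.165, and 9 pairs were above 0. Tagln with Notch3 (r = 0.70) and Pdgfrb with Vtn (0.55) were highest and Myh11 with Vtn lowest (-0.63). The r of Rgs5 with the other 6 ran from -0.37 (Myh11) to 0.22 (Vtn), while Spearman's rho was -0.055 for Myh11 and -0.15 for Vtn, so the sign for Vtn turned under ranks.

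Against the summed marker lists, Pdgfrb had r from -0.70 (oligodendrocyte lineage) to 0.76 (fibroblast), and Vtn from -0.61 (neuron) to 0.82 (astrocyte). Rgs5 had r from -0.58 (endothelial) to 0.41 (astrocyte), with -0.31 for fibroblast and 0.24 for neuron markers. Most of the endothelial sum was Kdr, so the -0.58 is largely a value for that gene. With proliferation genes r was -0.072 for Rgs5, 0.62 for Pdgfrb and 0.79 for Vtn. Of 13895 genes with at least 1 CPM, the 5 whose deviations were most like those of Rgs5 were Mtrex (0.92), Rock2 (0.92), Phospho2 (0.92), Hace1 (0.91) and Cep135 (0.90), and none of them was called between the groups. These are the highest of 13895 values over 11 samples. No limit for such extremes is given, so they do not show a link to Rgs5.

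**Figure D4:**
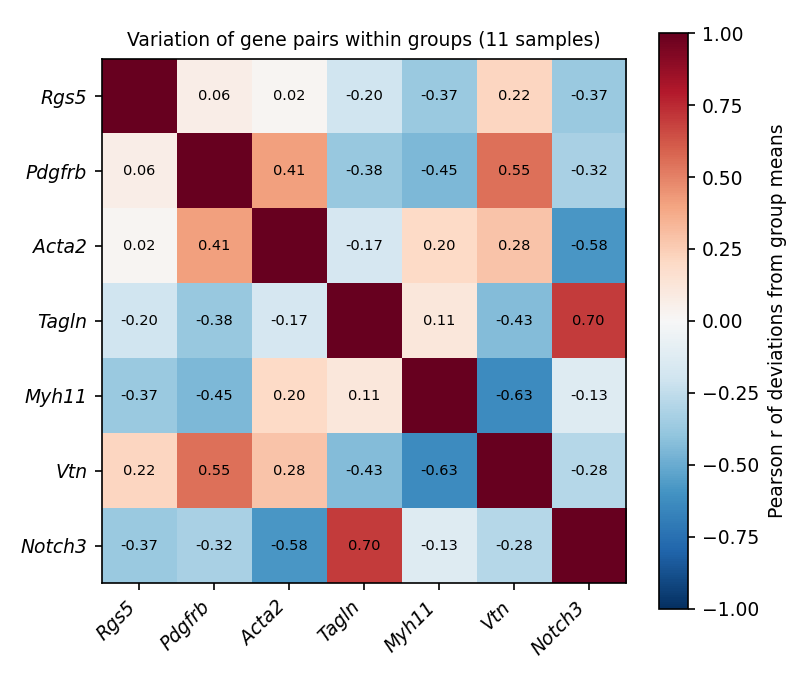
Pearson r between each pair of the 7 tested genes, from deviations of log2 CPM from the group means over 11 samples; colour and number give r, red above and blue below 0. Rgs5 has r between -0.37 and 0.22 with the others, and the highest r is 0.70 for Tagln and Notch3.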

How the data were processed

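Per the labels and the study's methods, libraries were made with a TruSeq poly(A) kit and read from 1 end, checked with FastQC 0.11.5, aligned to mm10 with STAR 2.5.2b, and counted with featureCounts of Subread 1.5.1. The annotation release, strand and multi-mapping settings are not given in the sources used here. The deposited raw counts per gene were analysed as they stand. A second deposited table, of 16921 genes, holds a normalized signal (counts divided by 1 size factor per column) and was used only for an alternative. Of 48709 identifiers, 48349 matched GENCODE M21, which gave symbols, exon lengths and 3′ UTRs of protein-coding transcripts (GRCm38).

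Groups came from the sample titles. Genes that reached 5 counts in 50% of samples or more were tested with edgeR 4.0.16 (TMM, robust quasi-likelihood test, group only, Benjamini-Hochberg) in R 4.3.3, with DESeq2 1.42.0 and limma 3.58.1 as alternatives. The fit was tested on simulated data. The members and gene lists were chosen with earlier results of these data known. Named genes were the 10 members, the 5 most like Rgs5 and, from each further list, those past the threshold (up to 4) and the 2 highest per length. Also named were list genes with at most 3 counts in every library, genes that overlap a member, genes shared between lists and genes called only under an alternative. Counting limits cover counting error only. Same-numbered samples did not deviate together, so the numbers were not taken as pairs.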

Additional observations from a re-analysis of the deposited data

Results flagged for a closer look

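The lowest or highest sample of a group was set against the others in 42 series of values, using Dixon's 95% limit, and 2 stood out, where chance at 1 in 20 gives 2.1. Rgs5 in mimic replicate 1 was at 8.77 CPM, with the other 4 mimic samples between 6.81 and 7.33 CPM; it was still below the lowest control sample. The summed level of the other regulators of G-protein signalling in mimic replicate 3 was 505.3 CPM, the highest of its group and inside the control range of 464 to 518 CPM.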

How the results depend on the processing

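The number of tested genes called (495) was 785 with no count filter, and 218 to 491 when 1 sample was left out, lowest without control replicate 1. It was 564 with DESeq2, 491 with RLE size factors, 513 with a filter of 10 counts, 406 with limma on the authors' normalized table and 405 with control replicate 1 thinned. Upper-quartile factors gave 460, of which 226 were lower and 234 higher, against 307 and 188. Of the 10 genes, 2 were called with no count filter (Rgs5 and Vtn) and 0 to 2 without 1 sample. For further pericyte genes the count was 2 with DESeq2 (Foxf2 and Anpep), 4 with no count filter (adding Cspg4 and Zic1) and 0 to 3 without 1 sample. For further smooth muscle genes it was 4 with no count filter (adding Itga8) and 0 to 3 without 1 sample. For Notch genes it was 0 to 1 without 1 sample (Nrarp, without mimic replicate 4). Anpep, Cspg4, Zic1, Itga8 and Nrarp were named after their values were seen, and the cause was not tested. Of 131 values of single members under alternatives, 124 kept direction and side of the threshold, 4 lost the call (Rgs5), 3 gained it (Vtn) and 0 reversed. The number of neighbouring pairs with 1 order in all control samples was 5 under each alternative run, and the median Spearman rho was -0.145.

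Labels share replicate numbers, but deviations of same-numbered samples correlated at only -0.023 to 0.013. With the replicate number as a block (control replicate 6 left out), 328 genes were called, with 2 of the 10 genes (Rgs5 and Vtn), 3 further pericyte genes (Foxf2, Anpep and Ndufa4l2, the last named after its values were seen), 3 further smooth muscle genes (Tpm2, Flna and Itga8, but not Mrtfb) and 0 Notch genes. Of the PDGF genes, Pdgfra, named after its values were seen, was called with the block (log2 fold change 0.26) and with no count filter (0.21), and of the other regulators of G-protein signalling Rgs16, likewise, with control replicate 1 thinned (0.23).

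Depth limits Kcnj8, Abcc9 and Des most: they had at most 6 counts in any library, where 3 counts are worth 0.0624 to 0.174 CPM. The totals give no sign of how many mural cells a culture held.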
